A study of Macaca mulatta with 36 samples.

Results

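Axon guidance ligands and receptors were examined in the hippocampus of male rhesus macaques with simian immunodeficiency virus encephalitis (SIVE) and of controls. The members are the genes whose symbols name a semaphorin, plexin, neuropilin, ephrin, Eph receptor, netrin, netrin-G protein, UNC5 receptor, Slit or Robo, taken from probe sets with exactly 1 gene symbol. Each gene is represented by its probe set with the highest mean signal. The symbols gave 64 of the 14132 genes on the array, with 33 counted as ligands and 31 as receptors. Of the 64 members, 34 have 1 probe set and 30 have several. UNC50, a protein of the Golgi apparatus, and UNC5CL, a death domain protein that resembles UNC5C, enter through the letters of their names alone. Both are counted among the 31 without being guidance receptors.

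Axon guidance molecules are secreted or membrane-bound cues and the receptors that growth cones use to steer toward or away from them. Semaphorins signal through plexins, with neuropilins as co-receptors for the secreted class, ephrins signal through Eph receptors on contacting cells, netrins signal through DCC and the UNC5 receptors, and Slits signal through Robos. In the adult hippocampus many of them stay in use at synapses, on dendritic spines and in blood vessels, and several also act in immune cells.

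The series compares 9 SIVE animals, of 2 to 6 years, with 9 uninfected Control animals, of 3 to 8 years. An anti-CD8 treatment was recorded for 4 of the SIVE animals, all of 6 years, and for 2 of the Control animals. These were Control 8, of 4 years, and Control 9, of 3 years. The SIVE animals without anti-CD8 were of 2 to 5 years. The labels do not describe the treatment further. No animal is labelled as infected but free of encephalitis, so infection and encephalitis cannot be told apart. Each animal has 2 arrays, which were averaged and counted as 1, and all levels are the deposited log2 signals, on which 1 unit is a 2-fold difference.

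The median signal of the 36 arrays lay between 5.59 and 5.75. Hippocampal neuron markers such as ZBTB20, PROX1 and NEUROD6 were above the median probe set level of 5.65, whereas 3 of the 8 measured markers on that list (DSP, MAN1A1 and TDO2) were below it. In SIVE 2, SIVE 3 and Control 8 the 3′ control probe sets exceeded the 5′ ones by 0.955 to 1.45, against 0.104 to 0.466 in the other 15 animals; all 3 animals had received anti-CD8. The duplicate arrays of an animal correlated at 0.977 in Control 9 and at 0.992 to 0.997 in the others. Of the interferon-stimulated genes measured, 14 of 16 rose in SIVE, with a mean level of 9.70 to 10.69 in SIVE animals and 6.72 to 7.19 in Control animals, and 6 of 14 macrophage and myeloid markers rose, with 6.98 to 7.73 in SIVE animals and 6.26 to 6.70 in Control animals.

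The first comparison asked which guidance genes differ between SIVE and Control. None of the 64 members passed the test (limma, p-values adjusted by the Benjamini-Hochberg method across the 52707 probe sets tested, threshold 0.05), while 7.23% of all genes did. The differences were small and mostly negative: 44 members had a lower mean in SIVE and 20 a higher one, and the median difference was -0.10, against -0.02 over all genes. The extremes were NTNG2, lower by 0.42 on the log2 scale, and EPHA1, higher by 0.48. The difference was below 0 for 68.8% of members and 55.6% of all genes.

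At an unadjusted p under 0.05, limma gave 14 members (21.9%), against 25.6% of all genes. The direction was uneven, with 12 members lower in SIVE (18.8%, against 12.7% of all genes) and 2 members higher (3.12%, against 12.9% of all genes). The 12 lower members were NTNG2, NTN3, NTN5, EPHB1, EPHB3, EFNA3, EFNA5, PLXNB2, ROBO2, ROBO4, SEMA3A and SEMA6C, and the 2 higher members were EPHA1 and SEMA3F. In no member did the SIVE and Control animals fall into ranges that do not overlap; over all genes, 0.106% had every SIVE animal below every Control animal and 1.84% had every SIVE animal above.

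The precision bounds how large a difference in the signal of these probe sets could have gone unseen. The bound holds for the probe set read and not for the gene, whose other probe sets could differ. In 15 of the 64 members that probe set lay below the median probe set level. These were EFNA2, EFNA4, EFNA5, EPHA3, EPHA6, EPHA8, NRP2, NTN1, NTN5, PLXNC1, ROBO4, SEMA3A, SEMA4G, UNC5C and UNC5CL. The median standard error of a difference was 0.11 for the members and 0.09 for all genes. For 56 of the 64 members (87.5%, and 87.4% of all genes) the 95% interval of the difference lay within 1.5-fold in both directions. The other 8 were EFNB2, EPHA1, EPHA3, EPHA4, NRP1, NTNG2, ROBO2 and SEMA3F, and for EPHA4 alone the interval reached past 2-fold (96.6% of all genes were within it).

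**Figure D1:**
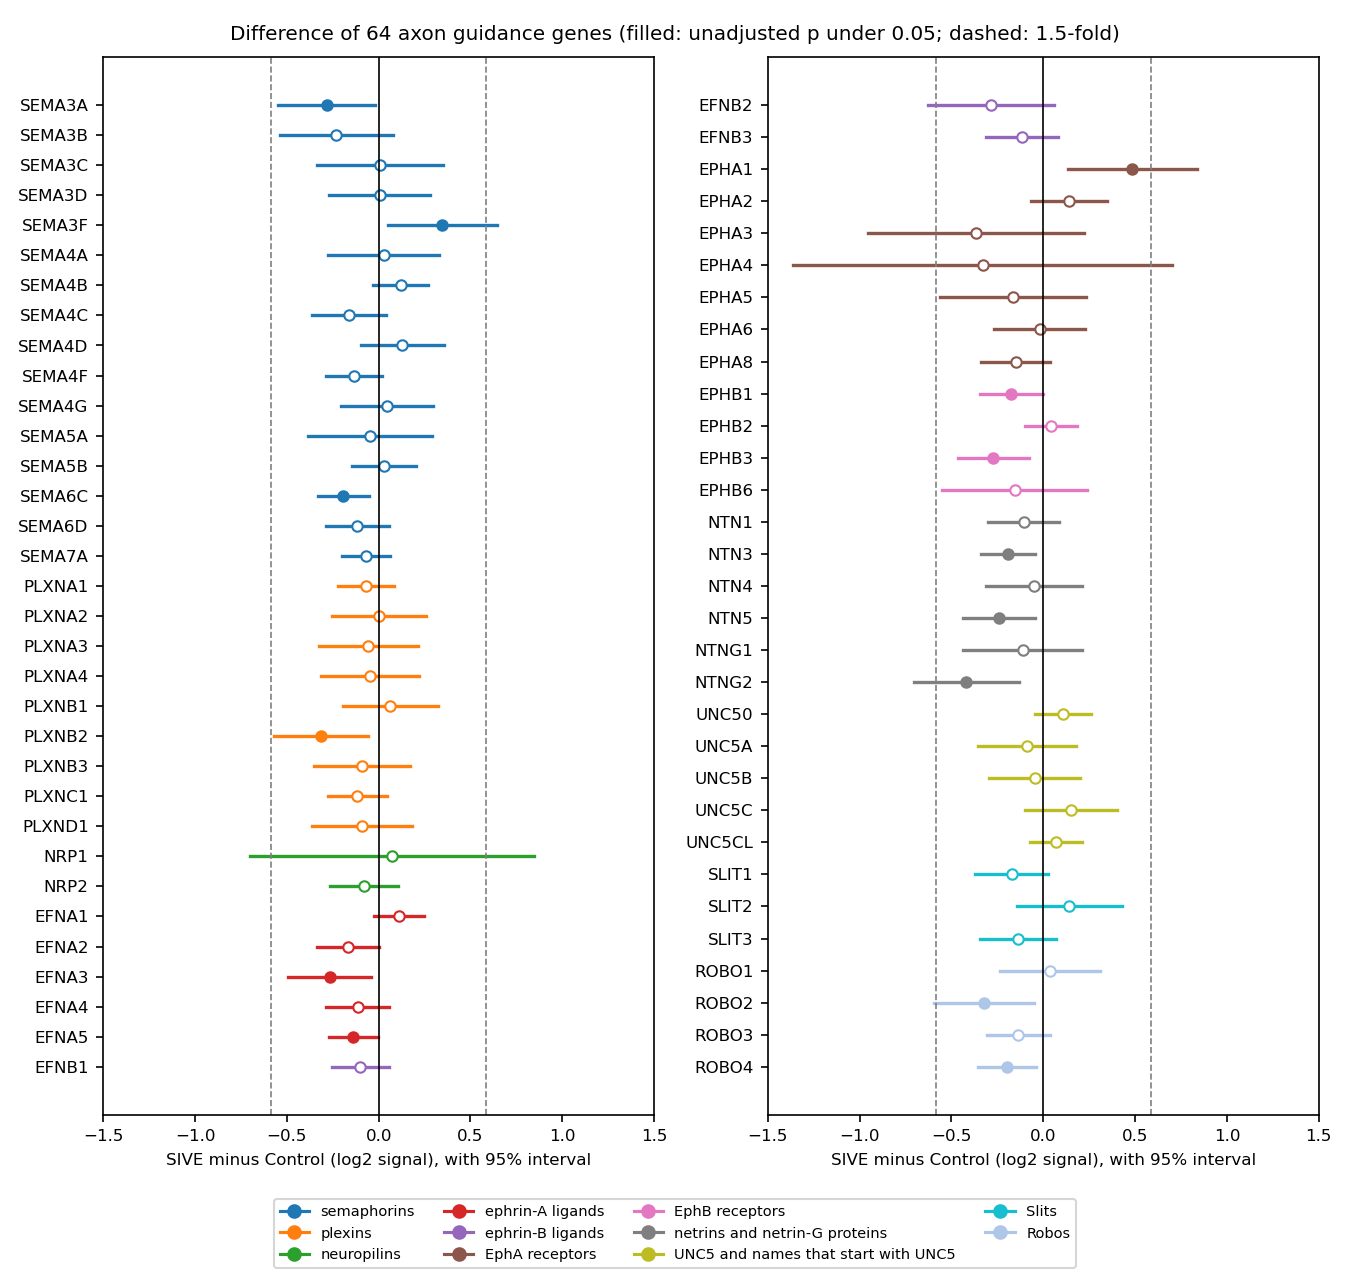
Difference between SIVE and Control for each of the 64 members, on the horizontal axis in log2 signal, with its 95% interval (9 SIVE and 9 Control animals); colours mark the families, filled points have an unadjusted p under 0.05 and dashed lines mark 1.5-fold. Points lie between -0.42 (NTNG2) and 0.48 (EPHA1), and the widest interval is that of EPHA4.

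Among the ligands, the netrins and netrin-G proteins had lower means over all animals, where 55.6% of all genes had a difference below 0. All 6 had a lower mean in SIVE, with a median difference of -0.15, and none passed the test. Among the anti-CD8 animals NTN4 (0.11 ± 0.20) and NTNG1 (0.05 ± 0.26) were higher in SIVE and the other members lower. NTNG2, netrin-G2, a membrane-anchored relative of the netrins that binds an adhesion molecule at synapses, had signals of 6.77, 7.55 and 7.73 (lowest, median and highest) in SIVE animals and 7.56, 7.79 and 8.47 in Control animals. Every SIVE animal lay below the Control median, and 5 of the 9 lay below the lowest Control animal. The difference was -0.42 ± 0.14 (SE), or 1.34-fold lower, with an adjusted p of 0.0878 in limma, the smallest of any member.

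NTN3, a secreted netrin, had 7.11, 7.38 and 7.65 in SIVE animals and 7.36, 7.60 and 7.81 in Control animals. The ranges overlapped, with 7 of 9 SIVE animals below the Control median, and the difference was -0.19 ± 0.07 (limma adjusted p = 0.128). NTN5 was dim, that is, below the median probe set level, at 4.93, 5.37 and 5.66 in SIVE animals and 5.34, 5.53 and 5.84 in Control animals, a difference of -0.24 ± 0.09 (limma adjusted p = 0.154). NTN1, the best known attractant of the family, had a difference of -0.11 ± 0.09, NTN4, a netrin of basement membranes, -0.05 ± 0.13, and NTNG1, netrin-G1, -0.11 ± 0.16.

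The 16 semaphorins were split evenly, 8 lower and 8 higher in SIVE, with a median difference of -0.02, and none passed the test. Under quantile normalization between arrays the split was 11 lower and 5 higher. SEMA6C, a transmembrane semaphorin, had 5.96, 6.29 and 6.46 in SIVE animals and 6.35, 6.39 and 6.68 in Control animals. In 7 of 9 SIVE animals the signal was below the lowest Control animal, and the difference was -0.19 ± 0.07 (limma adjusted p = 0.111). SEMA3F, a secreted semaphorin that acts through NRP2 and prunes mossy fibre axons and dendritic spines in mice, went the other way.

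SEMA3F had 5.70, 6.13 and 6.80 in SIVE animals and 5.49, 5.74 and 6.39 in Control animals, a difference of 0.35 ± 0.14 (limma adjusted p = 0.172). Its highest values in both groups came from the 3 animals of high 3′ signal. SEMA3A, the secreted semaphorin that repels axons through NRP1, was dim, with 3.98, 4.07 and 4.48 in SIVE animals and 4.08, 4.36 and 5.13 in Control animals, a difference of -0.28 ± 0.13 (limma adjusted p = 0.203). Its other probe sets, dimmer still, gave 0.07 and -0.04. The remaining semaphorins had differences between -0.23 (SEMA3B) and 0.13 (SEMA4D, which acts on plexin-B1 and in lymphocytes). Among them were SEMA4A at 0.03 ± 0.14, SEMA4C at -0.16 ± 0.10, SEMA5A at -0.05 ± 0.16 and SEMA7A, the membrane-anchored ligand of plexin-C1, at -0.07 ± 0.06.

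Of the 5 ephrin-A ligands, which are anchored to the membrane by lipid, 4 were lower in SIVE and 1 was higher, and none passed the test. EFNA3, which astrocytes of the mouse hippocampus present to EphA4 on dendritic spines, had 6.49, 7.10 and 7.34 in SIVE animals and 7.03, 7.33 and 7.61 in Control animals. The difference was -0.27 ± 0.11 (limma adjusted p = 0.165), and 8 of 9 SIVE animals lay below the Control median. EFNA5, a repellent of axons, was dim, at 4.30, 4.54 and 4.65 in SIVE animals and 4.41, 4.62 and 4.84 in Control animals, a difference of -0.14 ± 0.06 (limma adjusted p = 0.228).

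EFNA1, which neighbours EFNA3 in the macaque genome (RefSeq), had the opposite sign, 0.11 ± 0.06 (limma adjusted p = 0.344). Its signals were 10.38, 10.53 and 10.73 in SIVE animals and 10.27, 10.38 and 10.67 in Control animals, with every SIVE animal above the Control median. EFNA2 had a difference of -0.17 ± 0.08 and EFNA4, which lies next to EFNA3 in RefSeq, -0.11 ± 0.08.

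All 3 ephrin-B ligands, which span the membrane, had lower means in SIVE, with a median difference of -0.12. EFNB2, the ephrin of arterial endothelium, had 7.30, 7.88 and 8.28 in SIVE animals and 7.41, 8.04 and 8.86 in Control animals, a difference of -0.29 ± 0.16 (limma adjusted p = 0.323). EFNB2 was lower under anti-CD8 in both groups, and more SIVE than Control animals had received it. The EFNB2 difference was -0.18 ± 0.14 among animals without anti-CD8 and -0.11 ± 0.21 among those with it. The second EFNB2 probe set gave -0.52 ± 0.17 over all animals (limma adjusted p = 0.0838). The mean of both gave -0.40 with an adjusted p of 0.0192 in limma, past the threshold, although the probe sets did not follow each other over the 18 animals (r -0.34). EFNB1 had a difference of -0.10 ± 0.07 (limma adjusted p = 0.457) on its brighter probe set and 0.21 on the other. EFNB3 had -0.12 ± 0.09.

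The 3 Slits, secreted repellents, had no member past the test. SLIT1 had 5.68, 6.13 and 6.27 in SIVE animals and 5.86, 6.27 and 6.60 in Control animals. Every SIVE animal was below the Control median, yet only 1 was below the lowest Control animal, and the difference was -0.17 ± 0.10 (limma adjusted p = 0.306). SLIT3 had a difference of -0.14 ± 0.10 (limma adjusted p = 0.435) and SLIT2 one of 0.14 ± 0.14.

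**Figure D2:**
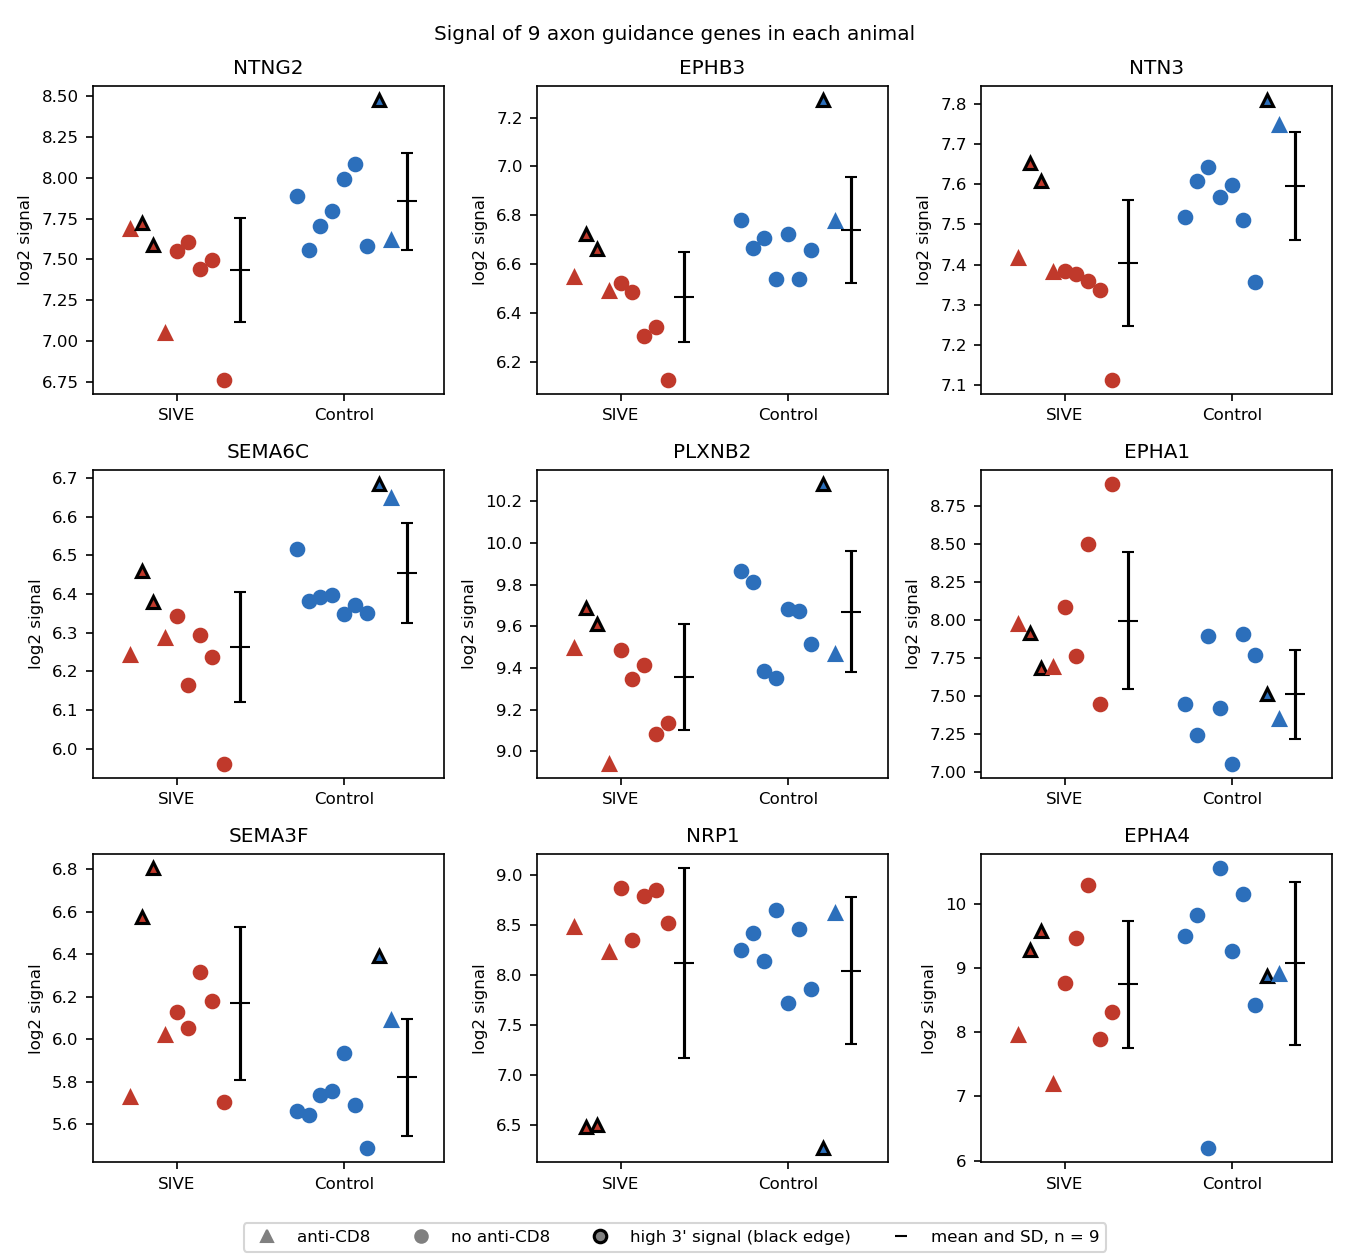
Log2 signal (vertical axes) of 9 members in each SIVE (left, red) and Control (right, blue) animal, each point the mean of 2 arrays; triangles are anti-CD8 animals, black edges the 3 animals of high 3′ signal, bars the mean and SD (n = 9). NTNG2, EPHB3, NTN3, SEMA6C and PLXNB2 sit lower and EPHA1 and SEMA3F higher in SIVE with overlapping ranges, NRP1 is low in the 3 marked animals, and EPHA4 runs from 6.20 to 10.55.

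Among the receptors, the EphB receptors of ephrin-B ligands had 3 of 4 members lower in SIVE, with a median difference of -0.16. EPHB3 had 6.13, 6.49 and 6.72 in SIVE animals and 6.54, 6.71 and 7.27 in Control animals. In 6 of 9 SIVE animals the signal was below the lowest Control animal. The difference was -0.27 ± 0.09 (limma adjusted p = 0.101), and it passed the threshold without the 3 animals of high 3′ signal (-0.27, limma adjusted p = 0.0239) and with anti-CD8 as a covariate (-0.34, limma adjusted p = 0.00653).

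EPHB1, which steers retinal axons at the optic chiasm in mice, had 7.36, 7.59 and 7.74 in SIVE animals and 7.42, 7.67 and 8.06 in Control animals, a difference of -0.17 ± 0.08 (limma adjusted p = 0.225). EPHB6, which lacks kinase activity, had -0.16 ± 0.19, and EPHB2 had 0.04 ± 0.07.

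The 7 EphA receptors had 5 lower and 2 higher means, with the widest range of any family. EPHA1, the first Eph receptor to be described, had 7.44, 7.91 and 8.90 in SIVE animals and 7.05, 7.45 and 7.91 in Control animals. In 8 of 9 SIVE animals it was above the Control median and in 5 above the highest Control animal. The difference was 0.48 ± 0.17, or 1.40-fold higher (limma adjusted p = 0.108). Of its 3 other probe sets, 2 gave 0.31 and correlated with the brightest over the animals (r 0.83 and 0.73). The remaining one gave -0.25 (limma adjusted p = 0.0549), but it was below the median probe set level and did not follow the brightest (r -0.31).

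EPHA8 was dim, at 5.09, 5.32 and 5.59 in SIVE animals and 5.25, 5.34 and 5.92 in Control animals, a difference of -0.15 ± 0.09 (limma adjusted p = 0.344). EPHA4, the Eph receptor that binds ephrins of both classes and limits dendritic spines in the mouse hippocampus, had 7.19, 8.77 and 10.30 in SIVE animals and 6.20, 9.27 and 10.55 in Control animals. Its difference of -0.33 ± 0.49 (limma adjusted p = 0.742) was smaller than its error. EPHA2 had 0.14 ± 0.10, EPHA3 -0.37 ± 0.28, EPHA5 -0.17 ± 0.19 and EPHA6 -0.02 ± 0.12.

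Of the 9 plexins, the receptors of the semaphorins, 7 were lower and 2 higher, with a median difference of -0.07. PLXNB2, a receptor of class 4 semaphorins found in neural progenitors and macrophages, had 8.94, 9.41 and 9.69 in SIVE animals and 9.35, 9.68 and 10.28 in Control animals, a difference of -0.31 ± 0.12 (limma adjusted p = 0.150). In 8 of 9 SIVE animals it was below the Control median. Its other probe set correlated with the brightest over the animals (r 0.79) but gave a difference of 0.19 ± 0.17, so the direction rests on the choice of probe set. PLXNC1, the receptor of SEMA7A, was dim, at 2.93, 3.37 and 3.57 in SIVE animals and 3.31, 3.47 and 3.69 in Control animals, a difference of -0.12 ± 0.08 (limma adjusted p = 0.391). The other 7 plexins had differences between -0.09 (PLXND1) and 0.06 (PLXNB1).

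The neuropilins showed no difference beyond their error. NRP1, co-receptor of secreted semaphorins and of VEGF in vessels, had 6.48, 8.48 and 8.87 in SIVE animals and 6.27, 8.25 and 8.65 in Control animals, a difference of 0.07 ± 0.37 (limma adjusted p = 0.935) whose sign turned when SIVE 5, SIVE 7, SIVE 8 or Control 8 was left out. Its lowest values in both groups came from the animals of high 3′ signal. Without anti-CD8, where no animal had high 3′ signal, the NRP1 difference was 0.46 ± 0.38 (limma adjusted p = 0.547). With anti-CD8 it was -0.02 ± 0.56. NRP2, the co-receptor of SEMA3F, was dim and had -0.08 ± 0.09 (limma adjusted p = 0.640), with -0.02 when Control 5 and -0.04 when SIVE 2 was left out.

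Among the Robos, receptors of the Slits, 3 of 4 had lower means in SIVE, with a median difference of -0.17. ROBO2 had 6.26, 6.69 and 7.14 in SIVE animals and 6.77, 7.13 and 7.47 in Control animals, with 5 of 9 SIVE animals below the lowest Control animal and a difference of -0.32 ± 0.13 (limma adjusted p = 0.168). Its neighbour in RefSeq, ROBO1, had 0.03 ± 0.13. ROBO4, the Robo of endothelial cells, lay below the median probe set level, at 5.11, 5.41 and 5.77 in SIVE animals and 5.49, 5.57 and 5.82 in Control animals, a difference of -0.20 ± 0.08 (limma adjusted p = 0.147). It passed the threshold when SIVE 2 was left out (limma adjusted p = 0.0473). The other ROBO4 probe set, far dimmer, gave 0.02. ROBO3, which neighbours ROBO4 and governs midline crossing of axons, had -0.14 ± 0.08.

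The UNC5 names had 2 lower and 3 higher means, with a median difference of 0.07, and none passed the test. UNC5C, a netrin receptor that mediates repulsion, was dim and had 4.99, 5.32 and 5.64 in SIVE animals and 4.38, 5.25 and 5.36 in Control animals, a difference of 0.15 ± 0.12 (limma adjusted p = 0.481) that was 0.06 without Control 5, the lowest animal. Its other probe set gave -0.01. UNC5A had -0.09 ± 0.13 and UNC5B -0.05 ± 0.12. UNC50 had 0.11 ± 0.07 (limma adjusted p = 0.407) and UNC5CL 0.07 ± 0.07.

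Some markers of cell types also differed between the groups. Endothelial and pericyte markers rose for 4 of 11 genes, VCAM1 by 2.59, VWF by 0.98, PECAM1 by 0.83 and CDH5 by 0.52. The others lay between -0.13 (KDR) and 0.34 (EMCN) and did not pass. The mean level of the list was 6.79 to 7.42 in SIVE animals and 6.39 to 6.98 in Control animals. In each group the highest level came from an animal of high 3′ signal. EFNB2 and ROBO4, which endothelial cells use, had lower means that did not pass the test. Of the neuron markers 2 of 5 fell (10.28 to 10.61 in SIVE animals and 10.33 to 10.92 in Control animals), while 0 of 8 hippocampal neuron markers passed, with a median difference of 0.13 (6.88 to 7.50 in SIVE animals and 6.88 to 7.43 in Control animals). Of the genes listed for oligodendrocyte precursors 2 of 6, SOX11 and BCAN, fell (6.82 to 7.63 in SIVE animals and 7.30 to 8.27 in Control animals for the list). CSPG4, OLIG2, SOX10 and GPR17 had lower means that did not pass the test. Of the oligodendrocyte markers 2 of 4 fell (10.29 to 10.91 in SIVE animals and 10.38 to 10.80 in Control animals). Of the astrocyte markers 1 of 9 rose and 1 fell, and of the homeostatic microglia, T and NK cell, and B and plasma cell markers 1 of 5, 1 of 7 and 1 of 5 rose. Their part in the differences of the guidance genes was not tested, and in this bulk tissue fewer cells of a type and less RNA per cell cannot be told apart.

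The 41 further probe sets of the members gave a second reading. Of these, 25 had the same sign as the brightest probe set of their gene and 24 were lower in SIVE. One passed the test, where 4.92% of all probe sets did: the dim second probe set of EPHA3, with 4.03, 4.16 and 4.22 in SIVE animals and 4.14, 4.35 and 4.56 in Control animals, a difference of -0.21 ± 0.05 (limma adjusted p = 0.0237). It did not follow the brightest EPHA3 probe set over the 18 animals (r -0.27). For 16 of the 41 the correlation with the brightest probe set, taken over deviations from the group means, was above 0.5, and 22 of the 41 lay below the median probe set level.

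Anti-CD8 was next used to split the comparison, with a mean for each of the 4 groups and a shared spread. With anti-CD8 every SIVE animal was older than both Control animals, so SIVE and age cannot be told apart there. Nor can anti-CD8 and age be told apart among the SIVE animals. A difference between the strata carries the same limit. Among animals with anti-CD8 (4 SIVE and 2 Control), 0 members passed limma's test, against 1.51% of all genes, and 6 had an unadjusted p under 0.05, against 16.0% of all genes. All 6 were lower in SIVE, against 8.46% of all genes that were: EPHB3, NTN3, NTN5, ROBO3, SEMA6C and SLIT1. Among animals without anti-CD8 (5 SIVE and 7 Control), 0 passed, against 4.77% of all genes, and 12 had an unadjusted p under 0.05, against 22.5% of all genes. Of the 12, 10 were lower (11.9% of all genes were) and 2 higher (10.6% of all genes were). Both splits gave 47 lower and 17 higher members.

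EPHB3 showed the difference on both sides of the split. With anti-CD8 it lay between 6.49 and 6.72 in SIVE animals and at 6.78 and 7.27 in Control animals, a difference of -0.42 ± 0.13 (limma adjusted p = 0.148). Without anti-CD8 it lay between 6.13 and 6.53 in SIVE animals and between 6.54 and 6.78 in Control animals, a difference of -0.30 ± 0.09 (limma adjusted p = 0.0753). In each stratum the SIVE and Control ranges of EPHB3 were separate, though they overlapped once the strata were pooled. Both gaps, from 6.53 to 6.54 and from 6.72 to 6.78, were smaller than its SD between duplicate arrays of 0.152. SIVE animals lay below all Control animals in both strata for 2 members (3.12%), EPHB3 and SEMA6C, against 0.545% of all genes. Without Control 9, EPHB3 passed limma's test with anti-CD8 (1.93% of all genes did), but Control 8, the animal of high 3′ signal with the highest EPHB3 signal of all, was then the only anti-CD8 Control animal and was assumed to vary like the other groups. In animals without anti-CD8, EPHB3 passed when Control 8 or Control 9 was left out (5.90% of all genes in each case), a comparison that these 2 animals enter through the shared spread alone. EPHA1 passed in animals without anti-CD8 when SIVE 8 was left out (4.30% of all genes).

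SEMA6C lay at 6.24 to 6.46 in SIVE animals and 6.65 to 6.68 in Control animals with anti-CD8, and at 5.96 to 6.34 in SIVE animals and 6.35 to 6.52 in Control animals without it, where the gap was far smaller than the spread of either group. NTN3 lay at 7.38 to 7.65 in SIVE animals and 7.75 to 7.81 in Control animals with anti-CD8, and at 7.11 to 7.38 in SIVE animals and 7.36 to 7.64 in Control animals without it. With anti-CD8 as a covariate over all 18 animals, 6 members were lower past limma's threshold, against 13.4% of all genes called in that fit: EPHB3, NTN3, SEMA6C, NTN5, ROBO4 and NTNG2. This share (6 of 64) is below that of all genes, and anti-CD8 moves with the 3′ signal, which was high in no animal without it.

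**Figure D3:**
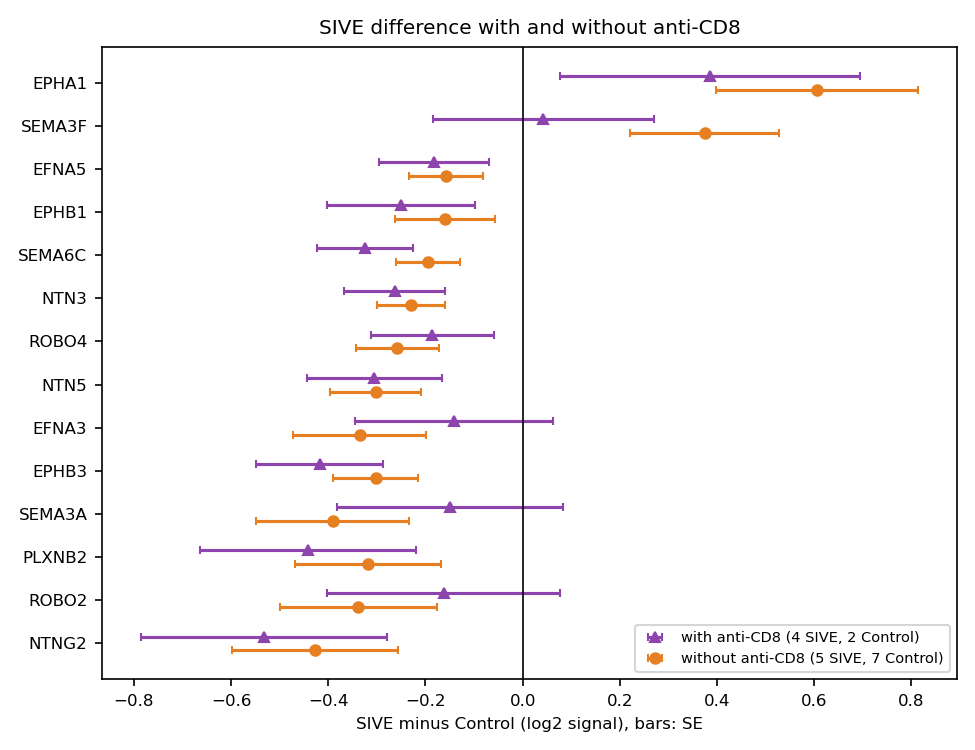
Difference between SIVE and Control (horizontal axis, log2 signal, bars are SE) with anti-CD8 (triangles, 4 SIVE and 2 Control) and without it (circles, 5 SIVE and 7 Control), for the 14 members with an unadjusted p under 0.05 over all animals. The 12 lower members are below 0 and the 2 higher members above 0 in both strata, with wider bars with anti-CD8. With anti-CD8 the differences of SEMA3F (0.04 ± 0.23), EFNA3, ROBO2 and SEMA3A are smaller than their SE. The members were picked on these same animals, so like signs in the strata are not independent of that choice.

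The difference between the strata was itself tested. No member passed limma's test, where 0% of all genes did, and 1 had an unadjusted p under 0.05, against 1.90% of all genes. That member was SLIT1, whose SIVE difference was -0.47 ± 0.16 with anti-CD8 and -0.04 ± 0.11 without it, a difference between them of -0.42 ± 0.20 (limma adjusted p = 1). The SLIT1 signals with anti-CD8 were 5.68 to 6.16 in SIVE animals and 6.37 to 6.57 in Control animals, and without it 6.07 to 6.27 in SIVE animals and 5.86 to 6.60 in Control animals.

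Anti-CD8 against none was compared within each group. Within SIVE, 0 members passed limma's test (0% of all genes) and 12 had an unadjusted p under 0.05, against 19.0% of all genes, with 9 higher (12.6% of all genes) and 3 lower (6.44%) under anti-CD8. Within Control, 0 passed (0% of all genes) and 14 had an unadjusted p under 0.05, against 15.8% of all genes, with 12 higher (9.79% of all genes) and 2 lower (6.03%). EFNB2 was on the lower side in both: 7.30 to 7.72 in anti-CD8 SIVE animals, against 7.88 to 8.28 in the other SIVE animals, and 7.41 to 7.81 in anti-CD8 Control animals, against 7.93 to 8.86 in the other Control animals. The EFNB2 differences were -0.55 ± 0.16 in SIVE (limma adjusted p = 0.304) and -0.62 ± 0.20 in Control (limma adjusted p = 0.300). When Control 9 was left out, 11 members passed limma's test in Control, against 14.5% of all genes, but Control 8, an animal of high 3′ signal, then stood alone for anti-CD8.

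The 3 animals of high 3′ signal, SIVE 2, SIVE 3 and Control 8, stood apart in several members regardless of group. They were below all other 15 animals for 3 members (4.69%, against 9.68% of all genes), which were NRP1, EPHA5 and EFNB2. NRP1 was at 6.27 to 6.49 in these animals and at 7.72 to 8.87 in the others. EPHA5, an Eph receptor of neurons, was at 8.51 to 8.64 in them and at 9.00 to 9.98 in the others. The 3 animals were above all others for 6 members (9.38%, against 8.51% of all genes): EPHA2, PLXNA3, SEMA3F, SEMA4A, SEMA4B and SEMA4G. SEMA4A, for example, was at 8.44 to 8.60 in them and at 7.49 to 8.03 in the others.

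Without these 3 animals, 3 members fell past limma's threshold (EPHB3, ROBO4 and NTN3), against 10.3% of all genes. Among the animals without anti-CD8, EPHB3 fell and SEMA3F rose past it in that fit, against 7.27% of all genes. The NTN3 difference over all animals left was -0.23 (limma adjusted p = 0.0343) and that of ROBO4 -0.26 (limma adjusted p = 0.0308).

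The members also differed in how much they varied between animals. The SD between animals within a group, taken over animal means of 2 arrays, had a median of 0.251 over the members and 0.204 over all genes, while the SD between the 2 arrays of an animal had medians of 0.128 and 0.125. The spread between animals was over 2 times that between arrays in 34 members (53.1%), against 39.5% of all genes. In 11 members it was no larger than that between arrays: EFNA2, EFNA5, EPHA6, EPHA8, EPHB2, NTN3, ROBO4, SEMA4F, SEMA6C, SEMA7A and UNC5CL. Of these, EFNA5, NTN3, ROBO4 and SEMA6C were among the members lower in SIVE at an unadjusted p under 0.05 in limma.

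EPHA4 varied most, a choice made after its values were seen. Its SD between animals was 1.14 and its SD between duplicate arrays 0.0895, and it ranked 19 of the 14132 genes by SD between animals. The lowest animal was Control 3 at 6.20 and the highest Control 4 at 10.55, a 20.5-fold range, and SIVE animals ran from 7.19 to 10.30. The other EPHA4 probe set followed the same order of animals, with a Pearson correlation r = 0.949 and a Spearman rank correlation of 0.957 across the deviations of 18 animals from their group means (permutation test with 100000 resamples, two-sided, p = 1e-05, the smallest these resamples can give, and 0.000205 after Benjamini-Hochberg adjustment over the 41 correlations). Without the 2 animals farthest from the median r was 0.91.

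**Figure D4:**
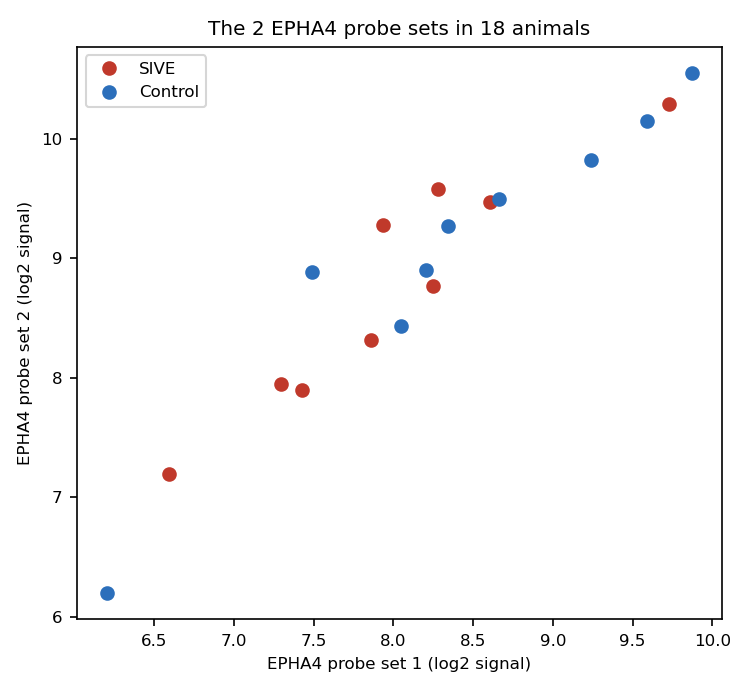
Log2 signal of the brighter EPHA4 probe set (vertical axis) against that of the other EPHA4 probe set (horizontal axis) in each of the 9 SIVE (red) and 9 Control (blue) animals, each point the mean of 2 arrays. Both probe sets order the animals alike, from Control 3 at the lower left to Control 4 at the upper right, and SIVE and Control animals are mixed.

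NRP1 had an SD between animals of 0.851 and ranked 90 of the 14132 genes, against 0.0900 between duplicate arrays, and its SD was 0.304 without the 3 animals of high 3′ signal. EPHA3, dim on both probe sets, had an SD of 0.644 and one between arrays of 0.309, the largest of any member, with Control 7 at 7.18 and the SIVE animals between 4.51 and 5.71. At the other end, SEMA7A had an SD between animals of 0.124 and one between arrays of 0.171, and EFNA1 had 0.130 and 0.0618.

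**Figure D5:**
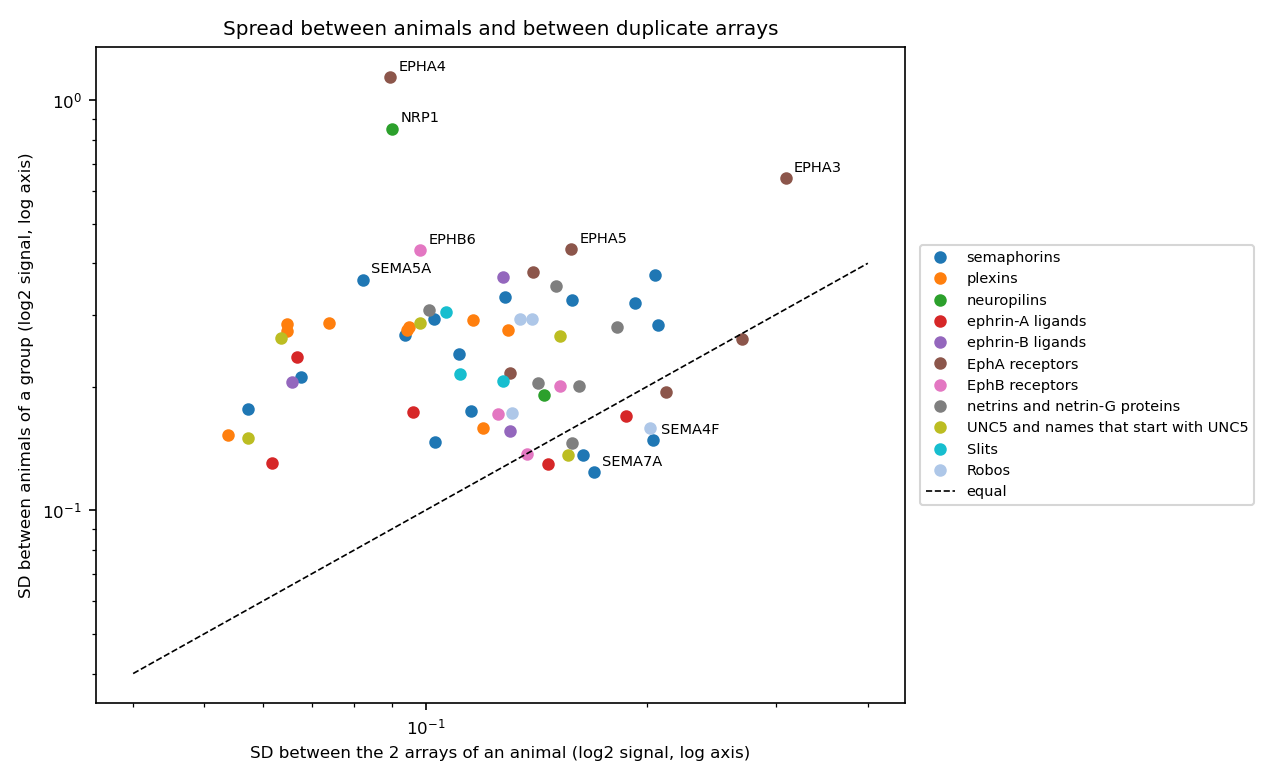
SD between animals of a group (vertical log axis) against SD between the 2 arrays of an animal (horizontal log axis), both in log2 signal, for the 64 members, coloured by family, with the dashed line where they are equal. EPHA4 and NRP1 lie far above the line with duplicate SDs near 0.09, and 11 members lie at or below it.

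The co-receptors and signalling partners of these families were read from 5 lists with 105 genes, of which 83 were measured. Of these, 2 rose and 1 fell in SIVE by limma, 3.61% against 7.23% of all genes. DCC, the attractive netrin receptor, was 3.57, 3.70 and 3.90 in SIVE animals and 3.43, 3.47 and 3.58 in Control animals, a rise of 0.23 ± 0.05 (limma adjusted p = 0.00753). It lay far below the median probe set level, its animals nearly separated by group, and a second DCC probe set gave -0.09 (limma adjusted p = 0.267). The call was lost with the mean of both probe sets (0.07, limma adjusted p = 0.347) and with the replicate block (limma adjusted p = 0.0651). None of the other 10 netrin co-receptors and repulsive guidance molecules passed: FLRT1 was at -0.33 ± 0.12, DRAXIN, a secreted repellent, at -0.33 ± 0.12, and FLRT2 at -0.33 ± 0.15.

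Of the 41 growth cone signalling genes, 1 rose and 1 fell. SHC1, an adaptor of receptor tyrosine kinases, had 8.34, 8.75 and 9.21 in SIVE animals and 7.89, 8.17 and 8.76 in Control animals, a rise of 0.49 ± 0.12 (limma adjusted p = 0.0230). Its second probe set gave 0.02, and the call was lost with quantile normalization between arrays (limma adjusted p = 0.0741) and with the replicate block (limma adjusted p = 0.0594). RND1, a small GTPase that binds plexins, had 7.00, 7.38 and 7.61 in SIVE animals and 7.48, 7.66 and 8.01 in Control animals, and fell by 0.29 ± 0.08 on the log2 scale (limma adjusted p = 0.0383), a call lost under 17 of 28 alternative settings. GAP43, a growth cone protein, was at -0.29 ± 0.08 (limma adjusted p = 0.0565), and FES, a kinase downstream of semaphorin 3A that is also active in myeloid cells, at 0.55 ± 0.16 (limma adjusted p = 0.0611).

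None of the 13 semaphorin and plexin partners passed. TYROBP and TREM2, which pair in microglia and macrophages and join plexin-A1 in mouse immune cells, were at 0.77 ± 0.25 (limma adjusted p = 0.0794) and 0.54 ± 0.20 (limma adjusted p = 0.121), beside the macrophage and myeloid markers that rose. L1CAM, an adhesion molecule that binds NRP1, was at -0.27 ± 0.10 and ERBB2 at 0.28 ± 0.10. None of the 8 Nogo and myelin inhibitor genes passed, with RTN4R, the Nogo receptor, at 0.23 ± 0.10, LINGO1, its co-receptor, at -0.27 ± 0.12, RTN4RL1 at -0.16 ± 0.12 and RTN4RL2 at -0.12 ± 0.08. None of the 10 Eph and Slit partners and shedding enzymes passed either, with ADAM10, a protease that sheds ephrins, at 0.21 ± 0.07 (limma adjusted p = 0.0869), SDC4 at 0.40 ± 0.14, SDCBP at 0.16 ± 0.10 and SDC2 at -0.19 ± 0.17. Across the 3 lists with no call, 9 of 31 genes (29%) had an unadjusted p under 0.05 in limma, near the 25.6% of all genes.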

How the data were processed

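Total RNA from the hippocampus of 18 macaques was hybridized to 36 Affymetrix arrays. The values the authors deposited were taken as log2 from their range and come from RMA (background correction, normalization between arrays and summary of each probe set), per the submitters' processing notes; its version, its probe definitions and whether the 2 arrays of an animal come from separate pieces of tissue are not given in the sources used here. Arrays give no counts, so their number limits the precision.

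Of 52865 probe sets, 158 control and reporter probe sets were left out and 52707 tested in R 4.3.3 with limma 3.58.1 (two-sided, from lmFit and eBayes, with Benjamini-Hochberg adjustment across them), after averaging the 2 arrays of each animal. A gene was read from its probe set with 1 symbol and the highest mean. Levels were not compared between probe sets. The other comparisons used 4 means (group by anti-CD8 label). The annotation table gave 1 symbol to 24969 probe sets, several to 361 and none to 27535. Of 72 macaque RefSeq genes that match the symbols, 8 (EPHA7, EPHA10, EPHB4, SEMA3E, SEMA3G, SEMA6A, SEMA6B and UNC5D) were not analysed here. RefSeq was used for names and neighbours alone, and no sequence or coordinate is given.

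Named are the 2 members of each family with the smallest p, every member past a threshold, the extremes, and 4 genes of each list; members at an unadjusted p under 0.05, and EPHA4, EPHA3 and others given by value alone, were chosen after their values were seen. The members and lists were chosen with earlier results of these data known. The labels do not say that the replicate numbers pair the animals, so the main test used no pairing. Deviations of animals with the same number correlated at -0.49 to 0.09 over all probe sets, which cannot show whether they were matched. The limma code was checked on simulated data. No relation of a called member to marker levels was computed, since no member was called. The alternatives were the replicate block, the random block over arrays, quantile and median scaling, the mean of probe sets, a filter on dim probe sets, trended eBayes, covariates, and leaving out animals. Permutation tests moved animals within each group (numpy 2.4.6 under Python 3.11.15); tables came from pandas 2.3.3 and plots from matplotlib 3.10.9.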

Additional observations from a re-analysis of the deposited data

Results flagged for a closer look

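In 19 of 128 sets of 9 animals (14.8%) one animal lay far from the other 8 by Dixon's test of its gap to the nearest of them, where chance alone gives about 1 in 20 and 13.9% of the sets over all genes had such an animal. Of the 19, 10 were in Control 8, an animal of high 3′ signal, which stood apart in its group for 15.6% of members and 15.6% of all genes. It was the highest Control animal for EFNA4 (5.95), EPHA2 (6.36), EPHB2 (6.57), EPHB3 (7.27), PLXNA3 (7.75), PLXNB1 (8.44), SEMA4A (8.60), SEMA4B (7.73) and SEMA4D (9.18), and the lowest for NRP1 (6.27). In other Control animals, EPHA4 was low in Control 3 (6.20), NRP2 was high (5.71) and UNC5C low (4.38) in Control 5, and SEMA6D was low in Control 6 (8.51). In SIVE animals, EFNA3 (6.49) and PLXNA1 (8.30) were low in SIVE 9, SLIT1 was low in SIVE 3 (5.68), and in SIVE 8 PLXNC1 was low (2.93) and SEMA4F high (6.71).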

How the results depend on the processing

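Over all 18 animals, 0 members were called by limma with the replicate block, trended eBayes, either scaling, the filter on dim probe sets or age as a covariate, against 4 with all 36 arrays and a random block (NTNG2, EPHA1, PLXNB2 and EFNA3; 10.9% of all genes), 1 with the mean of probe sets (EFNB2; 6.79%), 3 without the animals of high 3′ signal and 6 with the anti-CD8 covariate; leaving out 1 animal gave 0 to 1 (1 without SIVE 2). Over all genes, 1022 were called, against 573 with the block, 1541 with the random block and 1893 with the covariate. Without anti-CD8, 2 members (EPHB3 and SEMA3F) were called when the high 3′ animals were left out, and 0 to 1 when 1 animal was (EPHA1 without SIVE 8, EPHB3 without Control 8 or Control 9). With anti-CD8 the range was 0 to 1 (EPHB3 without Control 9, with Control 8 the lone anti-CD8 Control animal), and for anti-CD8 within Control 0 to 11. The median member difference ran from -0.11 to -0.07 with 1 animal left out. NRP1 reversed to -0.02 and EFNB1 to 0.053 with the mean of probe sets, and with 1 animal left out NRP1 ran from -0.15 to 0.28. Leaving out 1 animal also moved 8 other named members by over 1.5 times, none of them past the threshold in those fits: NRP2 and UNC5C (both without Control 5, NRP2 also without SIVE 2), EFNB1 (-0.06) and UNC50 (0.06) without Control 8, EFNB2 (-0.19) without Control 7, EPHA8 (-0.09) without Control 9, PLXNC1 (-0.06) without SIVE 8 and SLIT3 (-0.08) without SIVE 9. Of 638 values for 23 named members, 618 kept their direction and side of the threshold. The 3 calls among the 83 partner genes became 0 with the replicate block, 11 with the random block, 8 without the high 3′ animals and 8 with the anti-CD8 covariate, and 2 to 6 with 1 animal left out (6 without Control 8, 5 without SIVE 8). The cause of these changes was not tested.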
